A study of Mus musculus with 9 samples.

Results

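Reactive astrocyte genes were examined in RNA sequencing libraries of the mouse substantia nigra pars compacta. The set holds 10 genes of the 27339 in the deposited table, taken by gene name: Gfap, Vim, Serpina3n, Osmr, Steap4, S1pr3, Cd44, Serping1, Lcn2 and Cp. The 9 libraries fall into 3 groups of 3. Mice of one group were given MPTP together with a medium-chain triglyceride ketogenic diet (MPTP + MCT-KD, called the diet group here), mice of another were given MPTP, and the controls (Ctrl) complete the series. MPTP is a neurotoxin whose oxidised product is taken up by dopamine neurons and blocks mitochondrial complex I, and a ketogenic diet makes the liver supply ketone bodies as fuel. The strain, age, doses and feeding times are not given in the labels used here, and no mice on the diet alone were analysed here. Whether libraries of a group are separate animals is not stated in the labels, and p-values therefore reflect only the spread among libraries, part of which may be technical. No member passed edgeR's unpaired test in any of the 3 comparisons. Gfap had the highest mean in the diet group, and its 3 diet libraries lay above its 3 Ctrl libraries, as in 6.28% of all genes tested. The diet libraries of S1pr3 lay below its Ctrl libraries, as in 6.4% of those genes.

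Astrocytes answer injury, toxins and inflammation with a change of state called reactivity, in which the intermediate filaments GFAP and vimentin accumulate and secreted protease inhibitors, complement regulators, metal-handling proteins and surface receptors are induced. Cytokines of the interleukin-6 family act on this state through receptors that share the gp130 subunit and through the transcription factor STAT3, and microglial cytokines can add to it. In mice treated with MPTP, stronger GFAP staining in the nigra and striatum is a commonly used sign of the response. Most of the genes are not exclusive to astrocytes: vimentin, the hyaluronan receptor CD44 and C1 inhibitor are also made by fibroblasts of the meninges and vessel walls.

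Promoter sequences (RefSeq, GRCm38.p6) were found for 9 of the 10 members and were searched over 250 bases upstream of the transcription start. Serping1 had no window and was not searched. The search covered the STAT-type letters TTCNNNGAA and their stricter form TTCCNGGAA, the NF-kB consensus, the AP-1 letters TGANTCA, the C/EBP letters TTGCNNAA and the TATA box TATAAA, on both strands. A match is a description of letters, not of a bound site. The STAT letters were present in 7.02% of 32851 promoter windows and the stricter form in 0.913%, and among the members both were matched only in the window of Steap4, 116 to 108 bases upstream, by the same 9 letters. The C/EBP letters, found in 9.56% of all windows, matched in Steap4, in Lcn2 and in 1 of the 2 windows of Cp. The NF-kB letters as given (0.980% of windows) were matched in no member window searched, and the AP-1 letters (6.75%) in 1 window of Cp. Every match of the stricter STAT form is also a match of the wider one. TATA letters (12.4%) matched in Vim, in 1 window of Cp and in Steap4, there only on the opposite strand, 215 to 210 bases upstream. The windows of Gfap and S1pr3 are shown because these genes were the members whose diet and Ctrl libraries did not overlap, in opposite directions, Serpina3n because its diet and Ctrl means differed at an unadjusted p under 0.05, and Steap4 because it held the STAT letters. Capitals mark matched motifs. The windows lie at chr11:102897201-102897450 (minus strand) for Gfap, chr13:51408368-51408617 (plus) for S1pr3, chr12:104406458-104406707 (plus) for Serpina3n and chr5:7960222-7960471 (plus) for Steap4. GENCODE exons of the same gene cover none of the first 3 windows and 15 bases of the window of Steap4. Among the windows not shown, they cover all 250 bases for Vim and Osmr and 197 for Lcn2. In Cp they cover 195 bases of the window that held the C/EBP and TATA letters. The start used by RefSeq for Gfap lies inside the gene as GENCODE draws it.
Gfap: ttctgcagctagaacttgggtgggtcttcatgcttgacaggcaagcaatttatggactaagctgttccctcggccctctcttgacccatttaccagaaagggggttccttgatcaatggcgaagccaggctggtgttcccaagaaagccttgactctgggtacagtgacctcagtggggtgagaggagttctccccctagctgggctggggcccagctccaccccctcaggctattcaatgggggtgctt
S1pr3: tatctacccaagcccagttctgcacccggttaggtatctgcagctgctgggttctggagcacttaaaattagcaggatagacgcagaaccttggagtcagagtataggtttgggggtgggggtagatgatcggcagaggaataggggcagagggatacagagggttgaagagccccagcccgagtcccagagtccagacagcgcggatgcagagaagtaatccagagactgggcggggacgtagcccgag
Serpina3n: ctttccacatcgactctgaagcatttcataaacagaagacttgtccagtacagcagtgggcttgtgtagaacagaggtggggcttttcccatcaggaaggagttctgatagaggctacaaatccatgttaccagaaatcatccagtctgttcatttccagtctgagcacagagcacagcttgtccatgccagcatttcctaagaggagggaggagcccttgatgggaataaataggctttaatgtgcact
Steap4: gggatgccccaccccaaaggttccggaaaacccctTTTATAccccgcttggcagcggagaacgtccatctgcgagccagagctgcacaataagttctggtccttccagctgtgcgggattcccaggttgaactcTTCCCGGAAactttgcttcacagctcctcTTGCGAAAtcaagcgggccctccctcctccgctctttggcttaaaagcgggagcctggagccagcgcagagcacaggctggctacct

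Libraries held 33.2 to 40.0 M counts, and 6.14% to 7.06% of the counts were mitochondrially encoded. The labelled tissue was checked through 8 dopamine neuron markers (Th and Slc6a3 among them), all of which were detected. Their summed level was 569 to 699 CPM (counts scaled to the size of the library, with TMM factors) in the diet group, 595 to 684 CPM in MPTP and 715 to 852 CPM in Ctrl. Homeostatic astrocyte genes such as Aqp4 and Slc1a2 were present in every library, at a summed 7896 to 8793 CPM. Libraries differed in the level of markers of neighbouring tissue. The 12 meningeal fibroblast genes summed to 129 to 362 CPM in the diet group, 104 to 225 CPM in MPTP and 225 to 316 CPM in Ctrl. The 8 choroid plexus genes summed to 1273 CPM in Ctrl 3, the highest of a range that began at 44.2 CPM.

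Per unit of transcript length (FPKM), the members spanned a wide range of levels. Gfap (ENSMUSG00000020932, chromosome 11, 102887336 to 102900912, GRCm38) averaged 75.4 FPKM over the 9 libraries, and 744 genes of the table had a higher mean. Vim followed at 20.5 FPKM, Serpina3n at 12.1, Cp at 5.48, Serping1 at 4.77, S1pr3 at 2.51, Cd44 at 1.30 and Osmr at 0.857 FPKM. Lcn2 and Steap4 were barely detected, at 0.180 and 0.174 FPKM. Over the libraries, the range of Gfap (53.9 to 105 FPKM) stood clear of that of Vim (13.1 to 26.3 FPKM). The ranges of Vim and Serpina3n (9.69 to 14.8 FPKM) overlapped, but Vim was above Serpina3n within each of the 9 libraries. Ranges also overlapped for Cp (3.25 to 6.95 FPKM) and Serping1 (1.91 to 8.04 FPKM), and for Serping1 and S1pr3 (2.13 to 2.82 FPKM). So did those of Cd44 (0.646 to 2.06 FPKM) and Osmr (0.724 to 1.05 FPKM), and of Lcn2 and Steap4. Apart from Vim and Serpina3n, the order within each pair differed between libraries, so it is not separated from the spread. Gfap made up 49.2% to 67.0% of the members' summed FPKM in a library. The count and the FPKM of a gene should imply the same length in every library. The highest implied length was 1.53 times the lowest for Cd44 and at most 1.09 times for the other members, so the counts and FPKM values of Cd44 are not proportional to each other. Lcn2 and Steap4 did not reach the mean of 0.5 FPKM required for testing, which left 8 members tested among 14949 genes.

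**Figure D1:**
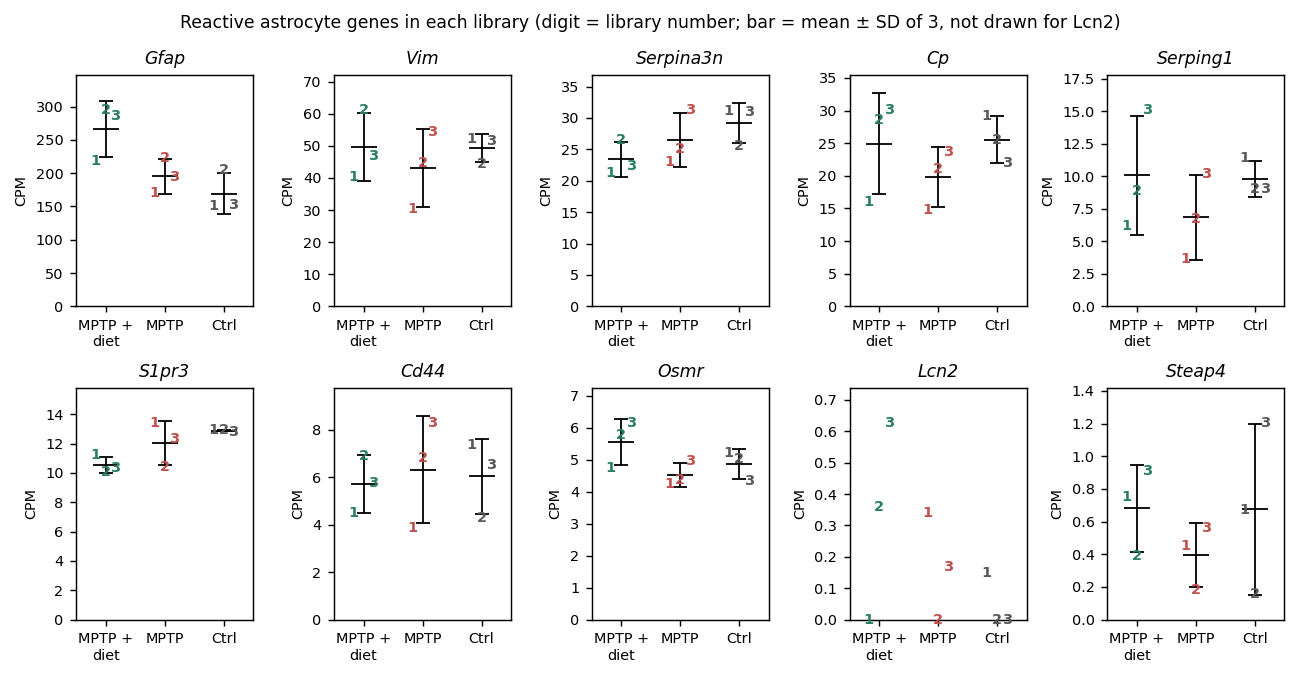
Level of each of the 10 members in CPM (vertical axes, from 0) in the MPTP + diet, MPTP and Ctrl groups; digits are single libraries by number, and bars are the mean ± SD of 3 (not drawn for Lcn2). The 3 diet libraries of Gfap lie at 219 to 295 CPM, above the Ctrl libraries at 150 to 205 CPM.

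The intermediate filament genes differed in pattern. Gfap, the filament protein that defines astrocytes, had 219, 295 and 286 CPM in the diet libraries, 170, 222 and 194 CPM in MPTP and 150, 205 and 152 CPM in Ctrl. All diet libraries were above all Ctrl libraries, while MPTP overlapped with both, since MPTP 2 exceeded diet library 1 and Ctrl 2 exceeded MPTP 1 and MPTP 3. The means were 266 ± 41.6 CPM in the diet group, 195 ± 26.3 CPM in the MPTP libraries and 169 ± 30.9 CPM in Ctrl (SD, n = 3 each). By edgeR's quasi-likelihood test the log2 fold change of Gfap was 0.66 between the diet group and Ctrl (SE 0.176, adjusted p = 0.740) and 0.45 between the diet group and MPTP (SE 0.175, adjusted p = 0.630). Between MPTP and Ctrl it was 0.21 (SE 0.175, adjusted p = 0.946), and it was 0.11 without MPTP 2 and 0.37 without Ctrl 2. With the level of meningeal fibroblast markers in each library as a covariate, the log2 fold change of Gfap was 0.66 between the diet group and Ctrl (adjusted p = 0.727), 0.32 between the diet group and MPTP and 0.34 between MPTP and Ctrl. The FPKM values of Gfap gave means of 94.9 ± 15.0 in the diet group, 70.6 ± 9.87 in MPTP and 60.8 ± 10.5 in Ctrl (SD, n = 3). In tissue RNA, a difference in the number of cells of a type and one in RNA per cell cannot be told apart from a single gene. Beside the 0.66 of Gfap, the log2 fold changes of 16 homeostatic astrocyte genes between the diet group and Ctrl had a median of 0.027 and a highest value of 0.23. Of these genes 12 were above Ctrl and 4 below. Whether the number of astrocytes differed was not tested.

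Vim (chromosome 2, 13573927 to 13582826), the filament partner of Gfap that is also present in vessel and meningeal cells, had 40.4, 61.2 and 47.0 CPM in the diet libraries, 30.3, 44.5 and 54.3 CPM in MPTP and 52.1, 44.2 and 51.6 CPM in Ctrl. The 3 groups overlapped, and MPTP 1 was the lowest library. The log2 fold change of Vim was -0.20 between MPTP and Ctrl (SE 0.235, adjusted p = 0.967), 0.20 between the diet group and MPTP (SE 0.235, adjusted p = 0.873) and 0.0064 between the diet group and Ctrl (SE 0.234, adjusted p = 0.999). Without MPTP 1 the first of these values was 0.0053 and the second 0.0045.

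Both secreted protease inhibitors had overlapping groups. Serpina3n (chromosome 12, 104406729 to 104414329), a serine protease inhibitor released by reactive astrocytes, had 21.3, 26.5 and 22.4 CPM in the diet libraries, 22.99, 25.1 and 31.3 CPM in MPTP and 31.1, 25.5 and 30.9 CPM in Ctrl. Its order of means was the opposite of that of Gfap, with 23.4 ± 2.75 CPM in the diet group, 26.5 ± 4.31 CPM in the MPTP libraries and 29.1 ± 3.19 CPM in Ctrl (SD, n = 3), and diet library 2 overlapped with Ctrl 2. The log2 fold change of Serpina3n was -0.32 between the diet group and Ctrl (SE 0.126, adjusted p = 0.740), -0.18 between the diet group and MPTP (SE 0.127, adjusted p = 0.756) and -0.14 between MPTP and Ctrl (SE 0.126, adjusted p = 0.947). Serping1 (chromosome 2, 84765387 to 84775444) encodes C1 inhibitor, which restrains the first complement component. It had 6.19, 8.89 and 15.1 CPM in the diet libraries, 3.62, 6.72 and 10.2 CPM in MPTP and 11.4, 8.999 and 9.014 CPM in Ctrl. Its highest library, diet 3, stood 4.18-fold above its lowest, MPTP 1, the widest range of any tested member, and the groups overlapped. The log2 fold change of Serping1 was -0.52 between MPTP and Ctrl (SE 0.425, adjusted p = 0.944), 0.56 between the diet group and MPTP (SE 0.426, adjusted p = 0.776) and 0.036 between the diet group and Ctrl (SE 0.420, adjusted p = 0.991). These values of Serping1 rested on single libraries: the first was -0.22 without MPTP 1 and -0.93 without MPTP 3, and the second 0.14 without diet library 3 and 0.96 without MPTP 3.

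Metal-handling members were led by Cp (chromosome 3, 19957054 to 20009145), the ferroxidase ceruloplasmin, which astrocytes carry on their surface and which helps iron leave the cell. Cp had 16.1, 28.6 and 30.1 CPM in the diet libraries, 14.7, 21.1 and 23.6 CPM in MPTP and 29.1, 25.5 and 22.0 CPM in Ctrl. Diet library 1 and MPTP 1 were lowest, and the 3 groups overlapped. The log2 fold change of Cp was -0.37 between MPTP and Ctrl (SE 0.271, adjusted p = 0.935), 0.33 between the diet group and MPTP (SE 0.271, adjusted p = 0.790) and -0.037 between the diet group and Ctrl (SE 0.269, adjusted p = 0.986). For Cp the first value was -0.19 without MPTP 1, and the second 0.16 without MPTP 1 and 0.57 without diet library 1. Lcn2 (chromosome 2, 32384633 to 32388252), a secreted protein that binds iron-carrying siderophores and is strongly induced in acute neuroinflammation, had 0, 12 and 22 counts in the diet libraries, 12, 0 and 6 counts in MPTP and 6, 0 and 0 counts in Ctrl. A count of 0 allows up to 3 counts, or 0.0778 to 0.0904 CPM in the 4 libraries without a count (counting error only). Lcn2 did not pass in a fit without the filter on low values (adjusted p = 0.892 to 0.951). Steap4 (chromosome 5, 7960457 to 7982213), a metalloreductase of iron and copper, had 26, 13 and 32 counts in the diet libraries, 16, 6 and 20 counts in MPTP and 27, 6 and 42 counts in Ctrl. The groups overlapped for both genes. Their coefficient of variation over the 9 libraries was 120.5% for Lcn2 and 58.1% for Steap4, where the mean count alone gives 39.4% and 21.9%.

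None of the receptor members passed either. Osmr (chromosome 15, 6813577 to 6874969), which joins gp130 to form the oncostatin M receptor, had 4.75, 5.76 and 6.14 CPM in the diet libraries, 4.24, 4.37 and 4.97 CPM in MPTP and 5.21, 5.03 and 4.32 CPM in Ctrl. The groups overlapped, and the log2 fold change of Osmr was 0.29 between the diet group and MPTP (SE 0.181, adjusted p = 0.718), 0.19 between the diet group and Ctrl (SE 0.180, adjusted p = 0.882) and -0.10 between MPTP and Ctrl (SE 0.181, adjusted p = 0.973). S1pr3 (chromosome 13, 51408639 to 51422797), a receptor for the lipid signal sphingosine 1-phosphate, had 11.2, 10.1 and 10.4 CPM in the diet libraries, 13.4, 10.4 and 12.3 CPM in MPTP and 12.9, 12.9 and 12.8 CPM in Ctrl. All diet libraries of S1pr3 were below all Ctrl libraries, and MPTP overlapped with both groups. Its log2 fold change was -0.29 between the diet group and Ctrl (SE 0.118, adjusted p = 0.740), -0.19 between the diet group and MPTP (SE 0.118, adjusted p = 0.719) and -0.098 between MPTP and Ctrl (SE 0.117, adjusted p = 0.965). Cd44 (chromosome 2, 102811141 to 102901665), the hyaluronan receptor, had 4.49, 6.89 and 5.77 CPM in the diet libraries, 3.87, 6.81 and 8.28 CPM in MPTP and 7.35, 4.28 and 6.50 CPM in Ctrl. The groups overlapped, and its log2 fold change was -0.14 between the diet group and MPTP, -0.080 between the diet group and Ctrl and 0.064 between MPTP and Ctrl (SE 0.285 to 0.286, adjusted p = 0.931, 0.967 and 0.992). On the log2(FPKM + 0.5) scale these values of Cd44 were -0.26, -0.33 and -0.063, in the same order.

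**Figure D2:**
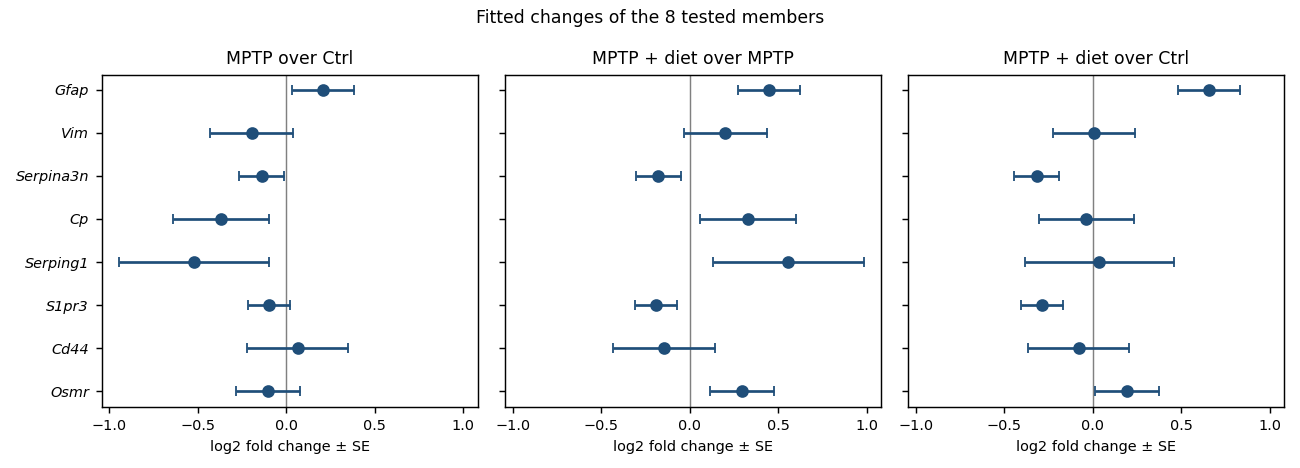
Log2 fold changes of the 8 tested members with their SE (horizontal axes) in the 3 comparisons, from edgeR. Gfap lies farthest above 0 in the diet group over Ctrl (0.66), where Serpina3n (-0.32) and S1pr3 (-0.29) lie below 0.

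Across the members, the comparison of MPTP with Ctrl asked what the toxin changed. None of the 8 tested members passed (edgeR, adjusted p at least 0.935), against 2 of all 14949 genes (0.0134%), DESeq2 called 14 genes and limma none, and no member was among them. None passed at an unadjusted p under 0.05 either, a level reached by 5.36% of all genes. Of the 8, 2 were above Ctrl and 6 below (50.4% of all genes were below), with a median log2 fold change of -0.12, beside -0.0009 over all genes tested. The groups overlapped in all 8, whereas they did not in 10.5% of genes. Without MPTP 1 the median was -0.051, without MPTP 3 it was -0.23, and -0.069 when neither Ctrl 3 nor MPTP 1 was used.

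The comparison of the diet group with MPTP asked what the diet changed in mice given the toxin. No gene passed by edgeR (0%), members included. DESeq2 called 19 genes, none of them a member, limma called none, and 1 member, Gfap, had an unadjusted p under 0.05, in the direction of a higher level. At that level stood 7.78% of genes, 3.76% with a higher level in the diet group. Above MPTP were 5 members and below it 3 (49.8% of all genes were below), with a median of 0.25, beside 0.0006 over all genes tested, and no member had groups that did not overlap, against 13.7% of genes. Same-numbered libraries of these groups had deviations correlated at 0.107 to 0.182, against -0.15 to 0.0413 for differently numbered ones. Differently numbered libraries of MPTP and Ctrl reached 0.186, and the labels give no pairing. The members were also set side by side within the 3 same-numbered pairs, a count added after the values were seen. Gfap, Osmr, Serping1 and Cp, 4 of the 8 tested members, were higher in the diet library of every pair, as were 16.3% of all genes. S1pr3 was lower in every pair, as were 15.3% of all genes. With the pairs as a block no member passed, and Gfap had the smallest adjusted p (0.329). The median was 0.082 without MPTP 1, 0.39 without MPTP 3, 0.12 without diet library 2, 0.16 without diet library 3 and 0.080 when neither Ctrl 3 nor MPTP 1 was used.

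Between the diet group and Ctrl, no gene passed by the unpaired edgeR test (0%), DESeq2 called 16 genes, none of them a member, limma called none, and 3 members had an unadjusted p under 0.05 (6.73% of genes did): Gfap, higher in the diet group, and Serpina3n and S1pr3, lower (3.36% of genes in each direction). The groups did not overlap for 2 of the 8 tested members, Gfap and S1pr3, and for 12.7% of all genes, 6.28% higher and 6.4% lower. By its p-value Gfap ranked 122 among the 14949 genes. The members split evenly, 4 above and 4 below Ctrl (50.5% of all genes were below), with a median of -0.016, beside -0.0015 over all genes tested. The median was -0.16 without diet library 2, 0.17 without diet library 1 and -0.024 without Ctrl 3 and MPTP 1. Left out singly, the libraries moved the log2 fold change of Gfap between 0.58 and 0.82 (adjusted p from 0.4999 to 0.999), that of Serpina3n between -0.41 and -0.25 and that of S1pr3 between -0.33 and -0.25, so all 3 kept their direction. The 3 comparisons share libraries, each group entering 2 of them, and their values are therefore not independent of each other.

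Over all 9 libraries the spread of each tested member was larger than counting error. The coefficient of variation over the 9 libraries was 24.9% for Gfap, 36.9% for Serping1, 25.3% for Cd44, 23.7% for Cp, 18.9% for Vim, 14.9% for Serpina3n, 13.2% for Osmr and 11.1% for S1pr3, where the mean count alone gives 1.16% for Gfap and 7.50% for Osmr. S1pr3, with a counting value of 4.86%, averaged 12.9 ± 0.0540 CPM in Ctrl (SD, n = 3), a spread below counting error. MPTP 1 was the lowest library for 5 of the 8 tested members (Vim, Cp, Serping1, Cd44 and Osmr) and below the member's own mean for 7, and diet library 1 was below it for 7. S1pr3 went the other way, with its highest level in MPTP 1.

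**Figure D3:**
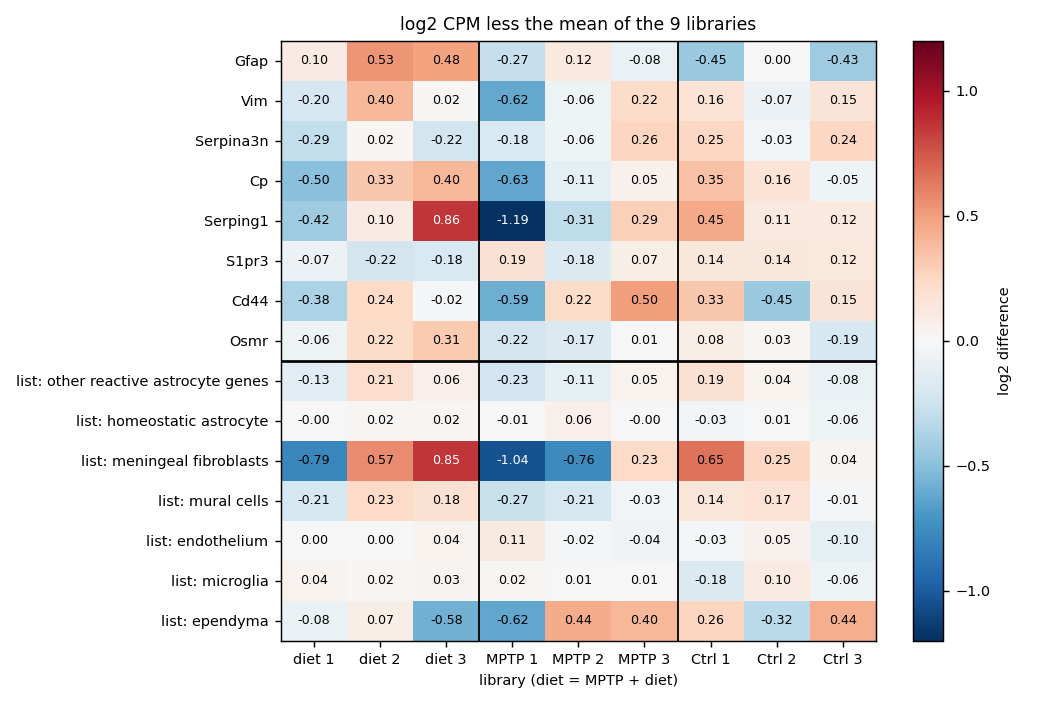
Log2 CPM of the 8 tested members (upper rows) and mean log2 level of marker lists (lower rows), each with its mean over the 9 libraries subtracted; columns are libraries, diet group first, and red is above the mean. MPTP 1 and diet library 1 are low for most members and for the meningeal fibroblast list (-1.04 and -0.79), while Gfap is high in diet libraries 2 and 3 (0.53 and 0.48).

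Meningeal fibroblast markers were low in the same libraries as several members. The meningeal fibroblast score, the mean log2 level of 12 genes such as Col1a1, Dcn and Igf2 with the mean over libraries set to 0, was -0.79, 0.57 and 0.85 in the diet libraries, -1.04, -0.76 and 0.23 in MPTP and 0.65, 0.25 and 0.037 in Ctrl. The mean level of the 7 tested members other than Gfap, centred in the same way, was -0.28, 0.15 and 0.17 in the diet libraries, -0.46, -0.096 and 0.20 in MPTP and 0.25, -0.016 and 0.078 in Ctrl. Both were lowest in MPTP 1, and the 3 libraries of lowest score were the 3 of lowest member level. Gfap did not share this order, since it was lowest in Ctrl 1, a library with one of the higher scores. All 12 meningeal genes were below Ctrl in MPTP and above MPTP in the diet group (median log2 fold changes -0.64 and 0.71), and none passed the test. With the score as a covariate the median of the members was 0.060 between MPTP and Ctrl, -0.058 between the diet group and MPTP and 0.0025 between the diet group and Ctrl. For Serping1 these values were 0.041, 0.0025 and 0.044. The score shifted between the groups too, so these fits do not separate it from the treatments. The part of meningeal cells in the members' values was not tested. Among mural genes, the smooth muscle actin gene Acta2 was at 31.0 ± 10.2 CPM in the diet group, 16.9 ± 2.08 CPM with MPTP alone and 29.3 ± 6.16 CPM in Ctrl, with no call. Of the 8 mural genes, 3 were above Ctrl in MPTP and 5 below (median log2 fold change -0.104). In the diet group 4 were above MPTP and 4 below (median 0.017). Cspg4 went the other way from Acta2, without overlap. Its log2 fold change was 0.216 between MPTP and Ctrl and -0.16 between the diet group and MPTP. Between MPTP and Ctrl 4 of the 8 mural genes had no overlap (1 higher, 3 lower), against 10.5% of all genes. Between the diet group and MPTP 3 had none (2 higher, 1 lower), against 13.7%. The 8 mural cell genes ranged from 304 to 379 CPM in sum in the diet group, 314 to 338 CPM in MPTP and 336 to 357 CPM in Ctrl. The part of mural cells in the members' values was not tested. Endothelial markers summed to 343 to 384 CPM over the 9 libraries, with the highest sum in MPTP 1. The 8 microglial markers summed to 282 to 286 CPM in the diet group, 273 to 279 CPM in MPTP and 244 to 278 CPM in Ctrl. The diet libraries lay above the Ctrl libraries in this sum but not in the mean log2 level of the markers. That level was 0.0998 in Ctrl 2, against 0.0248 to 0.0426 in the diet group. Between the diet group and Ctrl 5 of the 8 were higher and 3 lower, and none passed. An unadjusted p under 0.05, at which 3.36% of all genes were higher, was found for 3 of the 8 markers, all higher. Among them was the purine receptor gene P2ry12 (21.1 ± 1.13 CPM in the diet group, against 15.9 ± 0.577 CPM in Ctrl, adjusted p = 0.740). The part of microglia in the values of Gfap was not tested. Ependymal markers, another source of Vim, summed to 41.9 to 59.1 CPM in the diet group, 43.0 to 79.3 CPM in MPTP and 46.9 to 78.2 CPM in Ctrl, and their part was not tested. Of the neutrophil genes S100a8, S100a9, Ngp and Camp, which accompany Lcn2 in blood cells, none exceeded 18 counts in a library. The 9 blood and neutrophil genes summed to 135 to 180 CPM in the diet group, 98.4 to 168 CPM in MPTP and 165 to 281 CPM in Ctrl, most of it haemoglobin RNA, and the part of blood in the members' values was not tested.

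**Figure D4:**
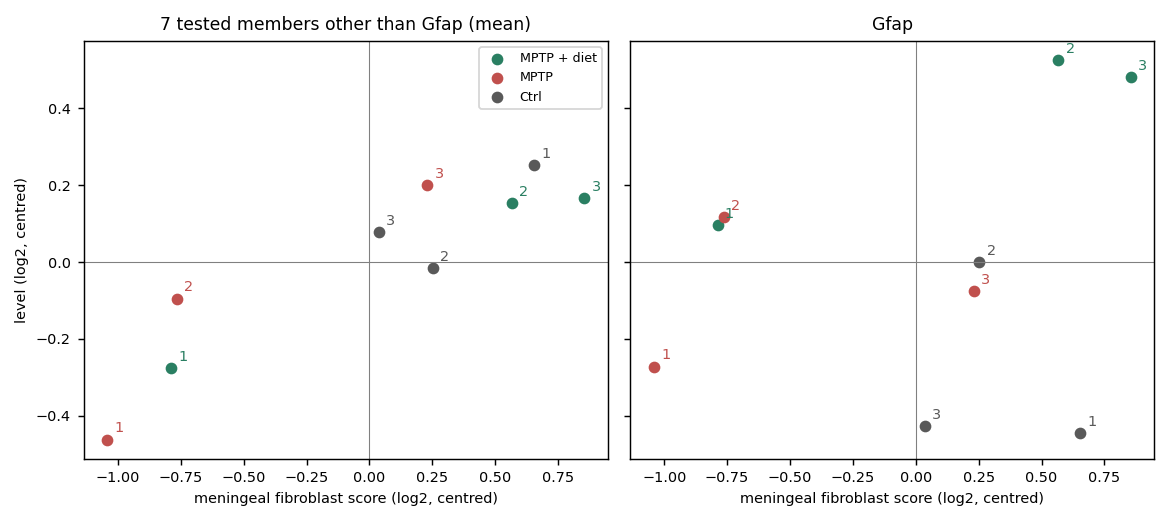
Mean centred log2 level of the 7 tested members other than Gfap (left) and of Gfap (right) against the meningeal fibroblast score of each library; colours give the group and digits the library number. On the left the libraries of low score (MPTP 1 and 2, diet 1) have the lowest member levels (-0.46, -0.096 and -0.28), and on the right diet libraries 2 and 3 lie highest (0.53 and 0.48) and Ctrl 1 lowest (-0.45).

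Other genes of the reactive state gave no call. Of 30 further genes of this kind (filaments, complement and antigen presentation genes, protease and growth signals), 20 were tested and none passed in any comparison. In MPTP 6 were above Ctrl and 14 below (median -0.13), in the diet group 12 were above MPTP and 8 below (median 0.063), and 7 were above Ctrl and 13 below (median -0.059). The groups did not overlap for 2, 3 and 2 of the 20 in these comparisons, against 10.5%, 13.7% and 12.7% of all genes. Hspb1, a small heat-shock protein of stressed cells and vessel walls, had the smallest p among them, at 10.6 ± 1.178 CPM in MPTP, against 16.9 ± 1.28 CPM in Ctrl. Its log2 fold change was -0.66 (adjusted p = 0.250, no overlap), and it stood at 14.3 ± 1.38 CPM in the diet group (log2 fold change against MPTP 0.43, adjusted p = 0.588). Fkbp5, a glucocorticoid-induced cochaperone, was at 45.8 ± 12.8 CPM in the diet group and 26.9 ± 3.67 CPM in MPTP (adjusted p = 0.660, no overlap). Between the diet group and Ctrl the smallest p belonged to 2 genes of lower level in the diet group. Amigo2, an adhesion protein, was at 51.7 ± 2.48 CPM in the diet group, against 58.7 ± 6.79 CPM in Ctrl (a log2 difference of -0.18, adjusted p = 0.740). H2-D1, an antigen presentation gene, was at 52.4 ± 3.94 CPM in the diet group, against 59.0 ± 3.18 CPM in Ctrl (a log2 difference of -0.17, adjusted p = 0.740, no overlap). The filament linker Synm followed, higher at 68.8 ± 2.35 CPM in the diet group, against 63.1 ± 1.90 CPM in Ctrl (adjusted p = 0.743, no overlap). The progenitor filament Nes was at 13.6 ± 1.74 CPM in MPTP, against 17.3 ± 4.56 CPM in Ctrl (adjusted p = 0.915). Timp1 and Cxcl10, which rise sharply in acute reactivity, had at most 12 and 14 counts in any library.

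Genes of the signals that drive reactivity gave no call, and several ligands were near the detection limit. Of 12 ligands only C1qa, Tgfb1 and Cntf were tested, and none passed. Il6, Il1b and Tnf had at most 3, 7 and 6 counts in a library, and Osm, the ligand of the receptor that holds Osmr, at most 18. Microglial C1qa, a complement component that can act on astrocytes, was at 26.5 ± 1.15 CPM in the diet group and 22.99 ± 2.37 CPM in Ctrl, with no overlap of the libraries (log2 fold change 0.21, adjusted p = 0.779). Among the 3 tested ligands 1 had groups that did not overlap there, against 12.7% of all genes. Of 18 receptor and JAK-STAT3 genes, all were tested and none passed, with medians of -0.036 in MPTP against Ctrl, 0.043 in the diet group against MPTP and 0.036 in the diet group against Ctrl. Stat3 itself was at 62.8 ± 0.841 CPM in the diet group and 72.5 ± 4.36 CPM in Ctrl (SD, n = 3), with no overlap (log2 fold change -0.21, SE 0.0612, adjusted p = 0.740), and at 66.1 ± 3.56 CPM in MPTP (against Ctrl -0.13, adjusted p = 0.904). Its feedback inhibitor Socs3 was at 2.04 ± 0.435 CPM in the diet group, 2.01 ± 0.390 CPM in the MPTP libraries and 2.72 ± 0.933 CPM in Ctrl. Of the 18 genes, 14 were above Ctrl in the diet group and 4 below. The diet and Ctrl libraries did not overlap for 2 of the 18, against 12.7% of all genes. The receptor gene Cntfr was at 103 ± 2.14 CPM in the diet group and 97.8 ± 0.867 CPM in Ctrl, with no overlap (edgeR, adjusted p = 0.846). The part of STAT3 signalling in the values of Gfap was not tested.

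Homeostatic astrocyte genes were little spread in their mean, while between the diet group and MPTP single genes had log2 fold changes from -0.22 to 0.28. Of 16 tested, none passed, and the mean log2 level of the list lay within -0.062 and 0.061 of its mean in all 9 libraries. In MPTP 12 were above Ctrl (median 0.054), and in the diet group 8 were above MPTP (median -0.014) and 12 above Ctrl (median 0.027). Slc1a2, the main glutamate transporter, was at 1586 ± 37.6 CPM in the diet group and 1459 ± 19.3 CPM in Ctrl, with no overlap (log2 fold change 0.12, adjusted p = 0.740). S100b, a calcium-binding protein of astrocytes, was at 180 ± 20.8 CPM in the diet group and 153 ± 11.3 CPM in Ctrl (a log2 difference of 0.23, adjusted p = 0.740), also with no overlap. The water channel Aqp4 was at 256 ± 20.3 CPM in the diet group and 220 ± 26.0 CPM in Ctrl (a log2 difference of 0.22, adjusted p = 0.740). The diet and Ctrl libraries did not overlap for 2 of the 16 genes, against 12.7% of all genes tested. At an unadjusted p under 0.05 (edgeR), 3 of the 16 were higher in the diet group than in Ctrl, against 3.36% of all genes. Slc7a10, a transporter of serine and related amino acids, was at 41.8 ± 3.98 CPM in the diet group, against 48.7 ± 0.816 CPM in MPTP (log2 fold change -0.22, adjusted p = 0.625), and the gap junction gene Gjb6 was at 86.5 ± 9.64 CPM in the diet group, against 71.4 ± 2.96 CPM in MPTP (adjusted p = 0.646).

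Genes with the profile most like that of single members were sought among 12807 others of at least 1 FPKM, by the root mean square difference of centred log2 CPM over the 9 libraries. For Gfap, whose own log2 SD was 0.35, the nearest were Anln, Capg and Nkx2-9, at 0.13, 0.15 and 0.15. Anln, which encodes the actin and septin scaffold anillin, stood at 113 CPM in the diet group, 90.1 CPM with MPTP alone and 82.8 CPM in Ctrl. For Vim the nearest were Pcdhgb2, Cd24a and Phldb2 (0.077, 0.11 and 0.11), and for Serpina3n they were Antxr1, Fpgs and Celf6 (0.056, 0.091 and 0.092). Antxr1, a receptor that binds collagen, stood at 26.4 CPM in the diet group, 29.0 CPM with MPTP alone and 30.7 CPM in Ctrl.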

How the data were processed

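Total RNA of the substantia nigra pars compacta was sequenced in 9 libraries (3 groups of 3), with column extraction and a NEBNext Ultra library kit per the labels' protocols. The authors deposited 1 table with, per the file headers, a raw count and an FPKM value for each gene and library. The submitters' processing notes name mm10 and GRCm38 as builds. No source used here gives the aligner, counter, annotation or strand setting, and overlapping or antisense genes may therefore share reads. Members were found by gene name, and coordinates are from GENCODE M21 (GRCm38). Of the lines, 10 named no gene and were left out. Columns of unmapped samples numbered 0.

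The main test was edgeR 4.0.16 (R 4.3.3) on counts, by quasi-likelihood with robust moderation and TMM scaling, using 1 model for the 9 libraries, over the 14949 genes of mean FPKM at least 0.5. Genes left out held 0.189% to 0.244% of counts. Adjusted p-values are Benjamini-Hochberg values over all genes tested (threshold 0.05), and an SE is the log2 fold change divided by the square root of F. Log2 CPM used a prior count of 2. DESeq2 1.42.0 and limma 3.58.1, on log2(FPKM + 0.5) and log2(FPKM + 1), were alternatives. Genes named are the 10 members, up to 4 of smallest p per other list and comparison, and the 3 nearest profiles of Gfap, Vim and Serpina3n. Genes named beyond these were chosen after their values were seen. Members and lists were chosen with earlier results of these data known. No pair of libraries in a group agreed within sampling noise (lowest chi-square per degree of freedom 11.8). Same-numbered libraries of the diet group and MPTP deviated together (correlations 0.107 to 0.182), above the minimum of 0.1, and the labels give no shared animal, litter or day. Between other groups they did not, though differently numbered libraries of MPTP and Ctrl reached 0.186. Intervals from counts cover counting error only.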

Additional observations from a re-analysis of the deposited data

How the results depend on the processing

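No member was called in any comparison under the 19 alternatives, except Gfap under the replicate block. Blocking by the number in the title, Gfap passed between the diet group and Ctrl (log2 fold change 0.66, adjusted p = 0.00952), so that 1 member was called. All genes called numbered 2 (MPTP against Ctrl), 0 (diet group against MPTP) and 0 (diet group against Ctrl) without the block and 3, 0 and 5 with it, and 14, 19 and 16 with DESeq2. Same-numbered libraries of the diet group and Ctrl correlated at -0.0074 to 0.078 in their deviations, below the minimum, and so share only a number. The block changed no other member call; for the diet group against MPTP, where the numbers met the minimum, the adjusted p of Gfap was 0.329 with it. Gfap, Serpina3n and S1pr3 kept their direction under all alternatives in the diet group against Ctrl. Among the 24 pairs of a tested member and a comparison, 11 kept their direction throughout. With the meningeal score as a covariate the median of the diet group against MPTP was -0.058, the values for MPTP against Ctrl were 0.063 (Cp), 0.082 (Osmr), 0.0090 (Serpina3n), 0.041 (Serping1) and 0.058 (Vim), and those for the diet group against MPTP were -0.090 (Cp) and -0.026 (Vim). In limma with 0.5 and 1 added, Cd44 was -0.063 and -0.037 in MPTP against Ctrl, and in the diet group against Ctrl Serping1 was -0.054 and -0.044 and Vim -0.022 and -0.021. With the block, Serping1 and Vim were -0.10 and -0.016 there. With Ctrl 3 and MPTP 1 left out, Vim was 0.037 in MPTP against Ctrl and Serping1 -0.021 in the diet group against Ctrl. The causes were not tested. With single libraries left out, no member was called (0 throughout), the medians ranged from -0.23 to -0.051, 0.082 to 0.39 and -0.16 to 0.17 in the same order of comparisons, and the values ranged from -0.18 to 0.32 (Cd44) and -0.40 to 0.0053 (Vim) in MPTP against Ctrl, from -0.28 to 0.091 (Cd44), -0.19 to 0.20 (Cp), -0.38 to 0.29 (Serping1) and -0.17 to 0.13 (Vim) in the diet group against Ctrl, and from -0.40 to 0.10 (Cd44) in the diet group against MPTP. Lcn2 and Steap4 had at most 22 and 42 counts in a library, and how far depth limits their comparison was not tested.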
